A study of Danio rerio with 32 samples.

Results

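The 10 genes described here form the growth hormone (GH) and insulin-like growth factor (IGF) axis of the zebrafish as far as it was chosen for description: the hormone gene gh1, the GH receptors ghra and ghrb, the ligands igf1, igf2a and igf2b, the IGF binding proteins igfbp1a, igfbp1b and igfbp2a, and the receptor substrate irs2b. They were found by matching the gene ID of each row of the deposited count table to these symbols, and all 10 had a row, out of 16039 rows with a gene ID. RNA was taken from 32 pools of 10 whole larvae at 7 days post fertilization (dpf), with 4 pools in each of 8 groups. The question set by the study's design was how larval transcripts respond to loss of the Nrf2 inhibitor Keap1, whose zebrafish paralogs are keap1a and keap1b, and whether loss of the transcription factor Nrf2 or of the repressor Bach1 alters that response.

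The crkeap1a/b; Bach1 DKO group carried mutations of bach1a and bach1b and was also injected with Cas9 and guides against keap1a and keap1b. It is written below as crkeap1a/b Bach1 DKO, and its reference on the same background was the double mutant line, Bach1 DKO. Whether the Bach1 DKO, Nrf2 KO and WT groups received a control injection is not stated. The crkeap1a/b; Nrf2 KO group, written crkeap1a/b Nrf2 KO, received the same keap1a and keap1b guides on the background of the nfe2l2a mutant, and its reference was that mutant line, Nrf2 KO. The crkeap1a/b, crkeap1a and crkeap1b groups were embryos without these mutations, injected against both paralogs or against a single paralog, and the WT group was not edited. Injected larvae (crispants) are mosaic, so not every cell of a pool carries an edit. The Bach1 DKO line came from a cross of bach1a and bach1b mutants and was made on a fluorescent reporter background, while the reporter status of the sequenced pools of each group is not given in the sources used here. No label gives a batch or a date, so line, handling and mutation cannot be told apart in comparisons between lines. The paper states that controls were siblings from the clutch, without saying which of these groups shared one. Nothing states that the pools of a group came from separate clutches, so each p-value measures the spread between pools.

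GH is released by the pituitary and binds GH receptors in liver, muscle and other tissues, where JAK2 and STAT5 carry the signal to target genes such as igf1. IGF1 and IGF2 then bind the IGF1 receptor, and insulin receptor substrates such as IRS2 pass the signal to PI3K, AKT and the TOR complex, which drive growth and keep FOXO factors out of the nucleus. IGF binding proteins hold IGFs in the extracellular fluid, and IGFBP1 is known in zebrafish and mammals to rise in hypoxia and food deprivation and to restrain growth.

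The rows with a gene ID summed to between 1976901 and 2804487 counts per pool. Three-prime sequencing gives a read per transcript end, so counts were expressed as CPM, the share of a pool's counts scaled by TMM factors, and were not divided by length. Of the single crispant pools, 5 (crkeap1a replicates 2 and 3, crkeap1b replicates 1, 3 and 4) stood apart, with scores on the first principal component of -68.1 to -45.0, against -21.3 to -9.96 in the other single crispant pools and WT pools, and each call in a single crispant comparison is given below with and without them. Leaving them out keeps a single crkeap1b pool, whose spread is then taken from the other groups. The tags lie at transcript ends and so check no edit, and the levels of mutated genes went either way. nfe2l2a averaged 306.1 ± 24.1 CPM in Nrf2 KO pools and 422.3 ± 59.9 CPM in WT pools (SD, n = 4 each, here and below). Its lowest mean, 234.3 ± 10.3 CPM, was in a group without its mutation, crkeap1a/b Bach1 DKO. bach1a averaged 6.40 ± 1.34 CPM in Bach1 DKO pools and 11.5 ± 2.29 CPM in WT pools. bach1b, the other gene mutated in that line, was instead higher there, at 44.3 ± 7.05 CPM against 21.4 ± 5.88 CPM. Liver and muscle marker lists were well represented in every group, while 4 of 9 listed pituitary genes (prl, pomca, cga and smtlb) had enough counts to test.

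Levels of the axis spanned a wide range. igfbp1a and igfbp1b were the most abundant members in every group, with group means of 241.1 to 854.7 CPM for igfbp1a and 204.9 to 652.1 CPM for igfbp1b, and irs2b followed with 95.2 to 184.5 CPM. The hormone, receptor and ligand genes had group means below 60 CPM, and igf1 rested on 3 to 28 counts per pool. igfbp2a had 0 to 10 counts per pool and did not pass the filter on low counts, so 9 of the 10 members were tested. In the limma-voom F test over the 8 groups, 7 of these 9 differed between groups at an adjusted p under 0.05, beside 78.2% of all 14108 rows tested, so the share among members was close to that of the transcriptome. The other two, igf1 and igf2a, had adjusted p of 0.189 and 0.122.

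**Figure D1:**
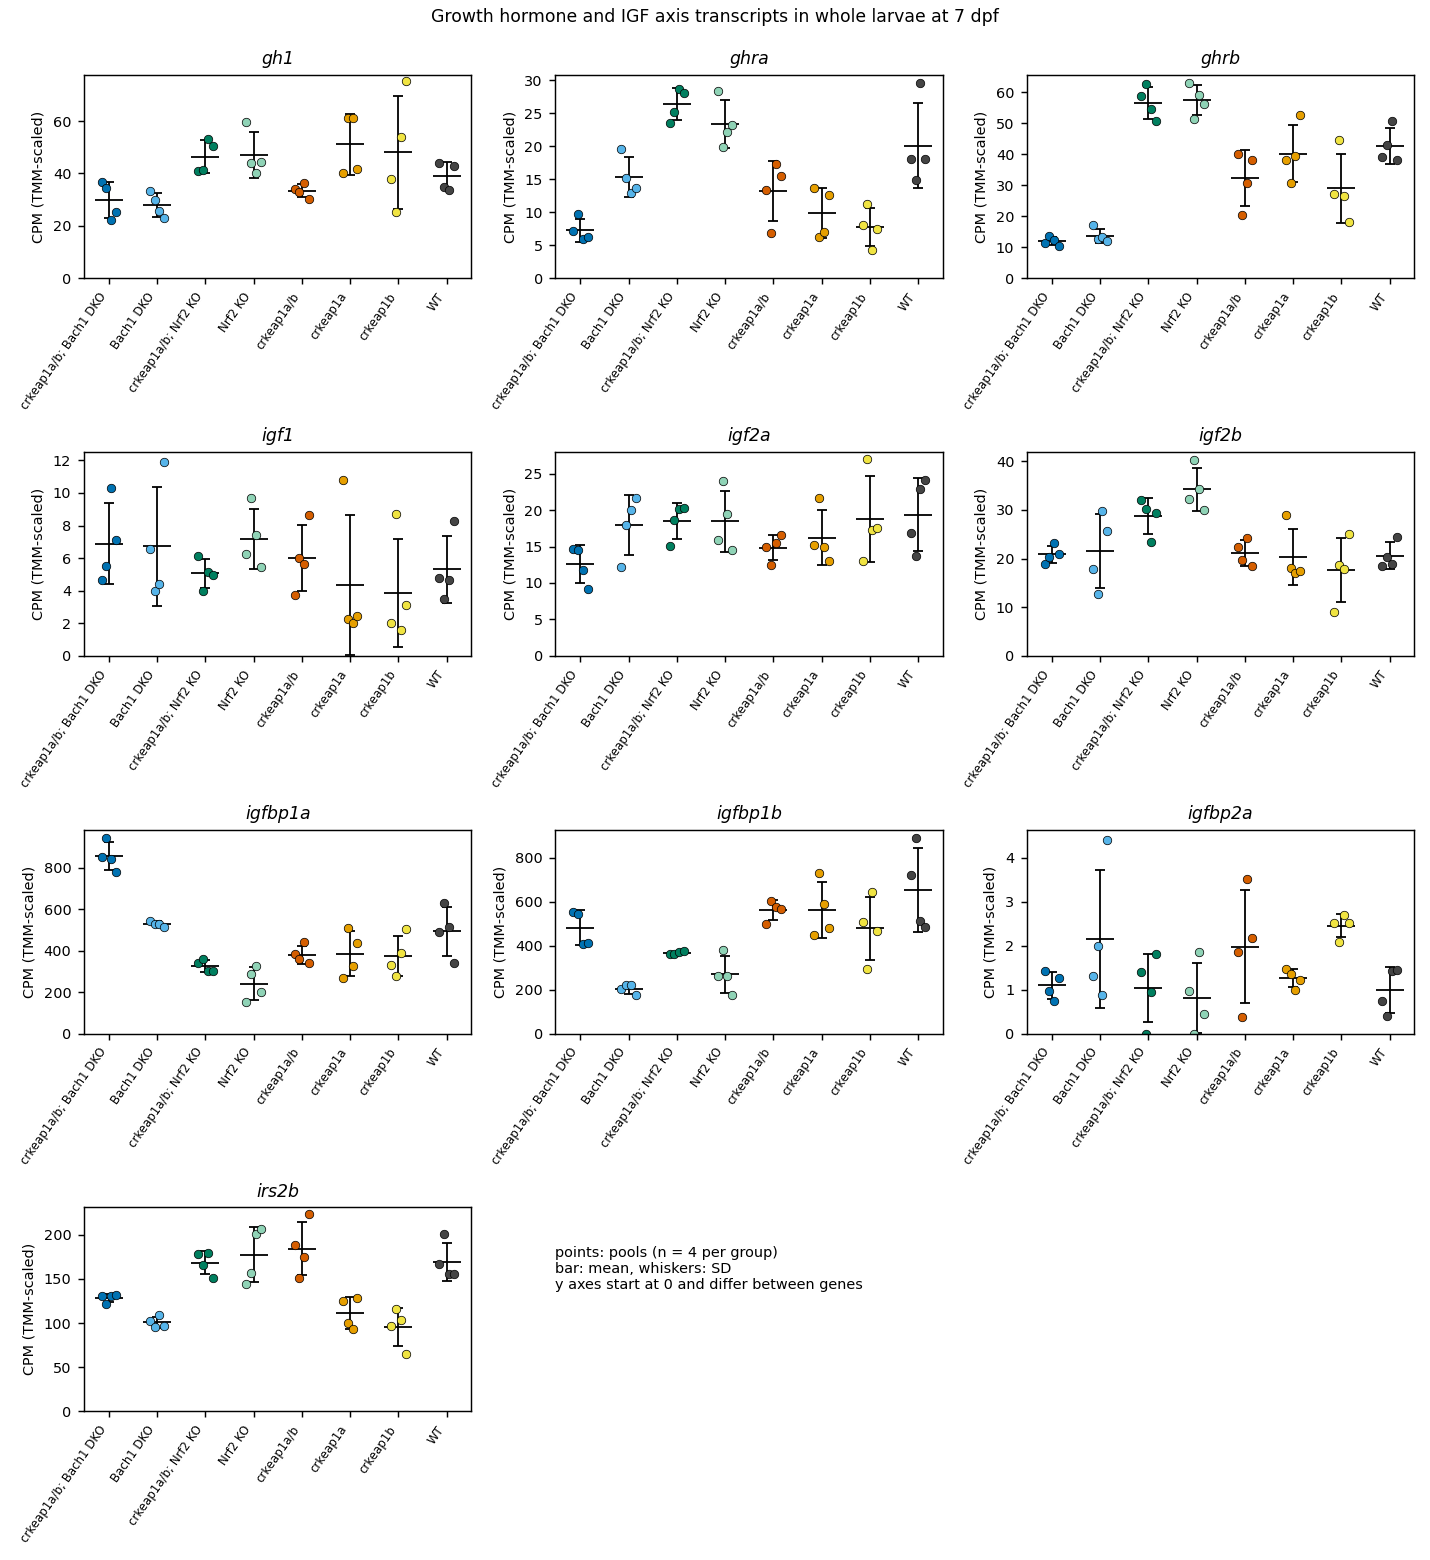
CPM of the 10 members (y axes, TMM-scaled, starting at 0 and differing between genes) in each of the 8 groups (x axes), where points are pools, bars are means and whiskers are SD (n = 4). ghrb lies lowest in the crkeap1a/b; Bach1 DKO and Bach1 DKO groups, igfbp1a lies highest in crkeap1a/b; Bach1 DKO, and igfbp1b lies lowest in Bach1 DKO.

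Among the pairwise comparisons, the members that changed were receptors, IGFBP1 genes, irs2b and igf2b. In Bach1 DKO against WT larvae, ghrb, igfbp1b and irs2b fell, which is 3 of 9 members beside 23.4% of all rows called (11.8% higher and 11.6% lower). Within the Bach1 line, in crkeap1a/b Bach1 DKO against Bach1 DKO larvae, igfbp1a and igfbp1b rose and ghra fell, which is 3 of 9 beside 25.4% (13.7% higher, 11.7% lower). In crkeap1a/b Bach1 DKO against crkeap1a/b larvae, igfbp1a rose and ghra, ghrb and irs2b fell, which is 4 of 9 beside 29.9% (15.9% higher, 14% lower). In Nrf2 KO against WT larvae, igf2b rose and igfbp1a and igfbp1b fell, which is 3 of 9 beside 15.9% (8.44% higher, 7.48% lower). In crkeap1a/b Nrf2 KO against crkeap1a/b larvae, ghra and ghrb rose and igfbp1b fell, which is 3 of 9 beside 24.1% (13.1% higher, 11% lower). In crkeap1a against WT larvae, ghra and irs2b fell, which is 2 of 9 beside 13.2% (6.19% higher, 6.98% lower), and in crkeap1b against WT larvae ghra, ghrb and irs2b fell, which is 3 of 9 beside 18.1% (9.85% higher, 8.22% lower). These comparisons share pools, above all the WT and crkeap1a/b pools, so their values are not independent of each other. For scale, the pools of the compared groups did not overlap for 11.8% to 34.5% of all tested rows, depending on the comparison.

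In crkeap1a/b against WT larvae, limma-voom called 0 of 9 members, with 2 at an unadjusted p under 0.05, beside 5.29% of all rows called (3.35% higher, 1.94% lower). edgeR and DESeq2 also called 0. In crkeap1a/b Nrf2 KO against Nrf2 KO larvae, limma-voom again called 0 of 9, with 2 at an unadjusted p under 0.05, beside 0.808% of all rows (0.716% higher, 0.0921% lower), and edgeR and DESeq2 called 0. The response to combined keap1a and keap1b editing was tested for a difference between backgrounds by interaction terms. The keap1a/b by Bach1 interaction was called for igfbp1a and igfbp1b, which is 2 of 9 beside 2.74% of all rows (1.47% above 0, 1.26% below), and the keap1a/b by Nrf2 interaction for 0 of 9 in limma-voom, with 3 at an unadjusted p under 0.05, beside 1.16% (0.475% above 0, 0.688% below). The keap1a by keap1b interaction, which asks whether the double edit equals the sum of the single edits, was called for gh1, ghra and irs2b, which is 3 of 9 beside 38.3% (19.6% above 0, 18.7% below).

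**Figure D2:**
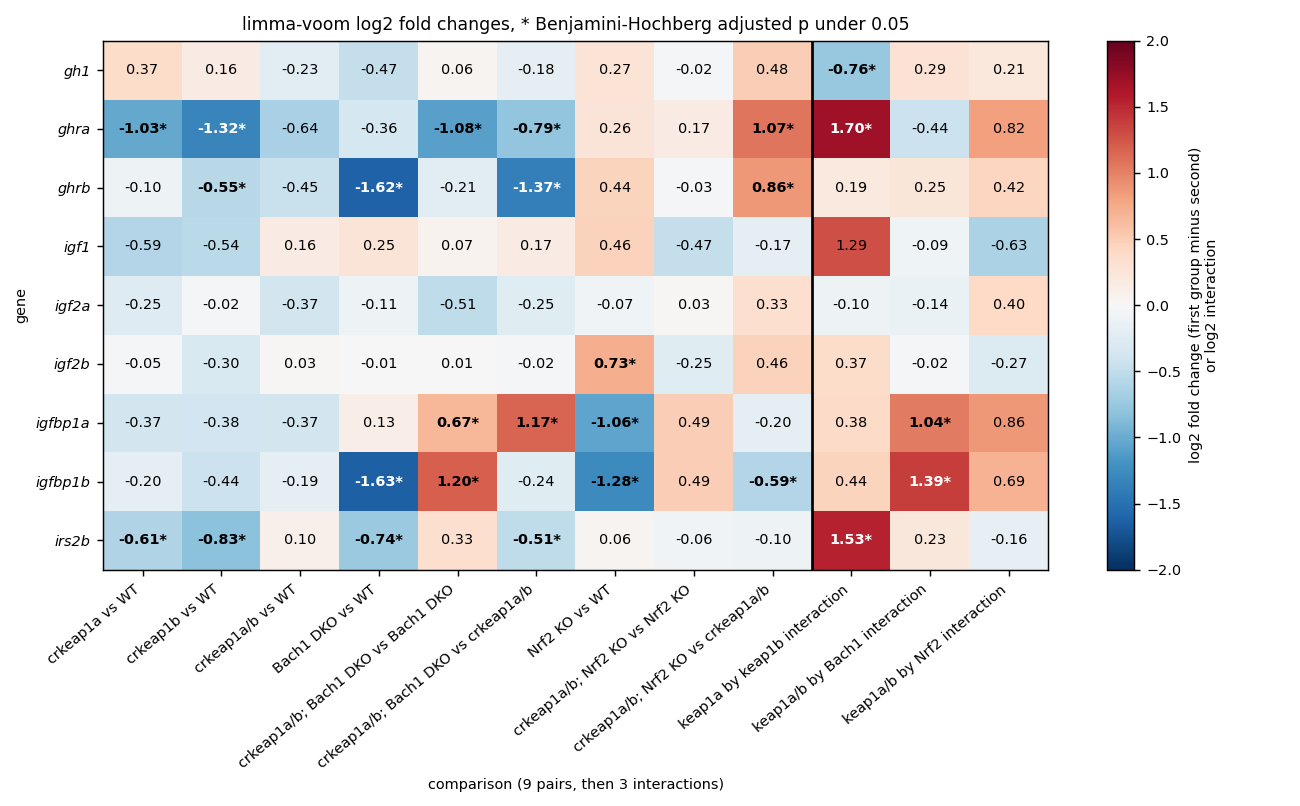
Log2 fold changes from limma-voom for the 9 tested members (y axis) in 9 pairwise comparisons and 3 interactions (x axis, separated by a line), with colour from -2 to 2 on the log2 scale and an asterisk for an adjusted p under 0.05. The deepest blue cells are ghrb and igfbp1b in Bach1 DKO against WT (-1.62 and -1.63), and the columns crkeap1a/b against WT and crkeap1a/b; Nrf2 KO against Nrf2 KO hold no asterisk.

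gh1 encodes growth hormone. Its group means ran between 28.0 ± 4.55 CPM in Bach1 DKO larvae and 51.1 ± 11.7 CPM in crkeap1a larvae (SD, n = 4 pools each), a 1.83-fold span, and the F test gave an adjusted p of 0.00202. In Bach1 DKO pools gh1 stood at 33.2, 30.03, 25.7 and 22.9 CPM, against 44.1, 34.8, 33.9 and 42.9 CPM in WT pools. The Bach1 DKO pools were all below the WT pools, but the log2 difference of -0.47 ± 0.23 (SE) had an adjusted p of 0.130. It was called with only the compared groups fitted (adjusted p = 0.0333) and with sample quality weights (adjusted p = 0.0426). gh1 stood in crkeap1a/b Nrf2 KO pools at 40.9, 41.2, 53.1 and 50.6 CPM, against 34.2, 32.8, 36.2 and 30.3 CPM in crkeap1a/b pools. All crkeap1a/b Nrf2 KO pools were above, with a log2 difference of 0.48 ± 0.22 and an adjusted p of 0.0985. The same 2 alternatives called this difference too (adjusted p = 0.00931 with only the compared groups and 0.0227 with quality weights).

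The keap1a by keap1b interaction of gh1 was -0.76 ± 0.30 on the log2 scale (adjusted p = 0.0456), since crkeap1a/b larvae averaged 33.4 ± 2.50 CPM while crkeap1a larvae averaged 51.1 ± 11.7 CPM, crkeap1b larvae 48.0 ± 21.5 CPM and WT larvae 38.9 ± 5.32 CPM. That call was lost on leaving out any of 10 of the 16 pools it rests on, with adjusted p of 0.0515 to 0.179 without them. Without the 5 pools that stood apart it was 0.32 (adjusted p = 0.681), a change of sign. The summed level of the 4 pituitary genes was 20.3 CPM (pools 9.81 to 27.4) in crkeap1a and 27.7 CPM (17.9 to 33.2) in crkeap1b larvae and 11.2 CPM (7.35 to 12.9) in WT larvae. Only 1 of the 4 was called higher in each of these single crispant comparisons. The list rests on few counts, with 18 for prl and 4 for smtlb in total over the WT pools. crkeap1a/b Bach1 DKO pools also had a sum above the WT pools (18.1 to 22.2 CPM), while gh1 averaged 29.8 CPM there, less than in WT larvae. The part of the pituitary sum in the gh1 values was not tested. In whole larvae, fewer cells of a type and less RNA per cell cannot be told apart.

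The GH receptors ghra and ghrb are paralogs that bind the hormone and activate JAK2. ghrb had the widest span of the axis, 4.80-fold between the highest and the lowest group mean, with 57.5 ± 4.88 CPM in Nrf2 KO larvae and 11.99 ± 1.35 CPM in crkeap1a/b Bach1 DKO larvae. In Bach1 DKO pools ghrb stood at 17.04, 12.8, 13.3 and 11.9 CPM, against 39.0, 43.0, 50.7 and 38.2 CPM in WT pools. Each Bach1 DKO pool was below each WT pool, and ghrb fell 3.07-fold (log2 -1.62 ± 0.23, adjusted p = 2.13e-06). The crkeap1a/b Bach1 DKO pools stood at 11.4, 13.6, 12.5 and 10.4 CPM, against 40.2, 20.4, 30.6 and 38.2 CPM in crkeap1a/b pools. The pools again did not overlap, and ghrb fell 2.59-fold (log2 -1.37 ± 0.23, adjusted p = 2.22e-05). Between crkeap1a/b Bach1 DKO and Bach1 DKO larvae the log2 difference was -0.21 and was not called. The summed level of 5 skeletal muscle markers was 11414 CPM (10609 to 12496) in Bach1 DKO and 9011 CPM (8435 to 9743) in WT larvae, with 2 called higher, and 4473 CPM (4067 to 4801) in crkeap1a/b Bach1 DKO and 6488 CPM (5561 to 7012) in crkeap1a/b larvae, with 3 called lower, and its part in the ghrb values was not tested.

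On the nfe2l2a mutant background both receptors were at the upper end of their ranges. ghrb stood at 58.7, 62.5, 54.5 and 50.6 CPM in crkeap1a/b Nrf2 KO pools, all above the crkeap1a/b pools given above, and rose by 0.86 ± 0.18 on the log2 scale (adjusted p = 0.000534). In Nrf2 KO pools it stood at 63.1, 51.5, 59.2 and 56.3 CPM, all above the WT pools, with a log2 difference of 0.44 ± 0.18 that was not called (adjusted p = 0.0852). A fit of only the compared groups (adjusted p = 0.0348) and sample quality weights (adjusted p = 0.0400) did call it. ghra stood at 23.5, 25.3, 28.7 and 28.0 CPM in crkeap1a/b Nrf2 KO pools, against 13.4, 6.79, 17.2 and 15.5 CPM in crkeap1a/b pools. All crkeap1a/b Nrf2 KO pools were above the others, and ghra rose 2.10-fold (log2 1.07 ± 0.24, adjusted p = 0.00106). ghra averaged 23.4 ± 3.60 CPM in Nrf2 KO and 20.1 ± 6.499 CPM in WT larvae, a log2 difference of 0.26 that was not called. The 5 skeletal muscle markers, a tissue that carries GH receptors, moved with these comparisons: 5 of 5 were called higher in crkeap1a/b Nrf2 KO against crkeap1a/b larvae (summed 13372 CPM in crkeap1a/b Nrf2 KO, pools 12043 to 14503, and 6488 CPM in crkeap1a/b, pools 5561 to 7012), and 4 of 5 in Nrf2 KO against WT larvae (13334 CPM in Nrf2 KO, pools 12693 to 14382, and 9011 CPM in WT, pools 8435 to 9743). The summed level of 13 hepatocyte genes was 5946 CPM (5088 to 6541) in crkeap1a/b Nrf2 KO and 3902 CPM (3419 to 4567) in crkeap1a/b larvae, with 5 of the 12 tested called higher, and 4412 CPM (2164 to 5612) in Nrf2 KO and 3725 CPM (3086 to 4445) in WT larvae, with 1 called higher. The part of either list in the receptor values was not tested.

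ghra differed from ghrb in the Bach1 comparisons. ghra stood in crkeap1a/b Bach1 DKO pools at 7.16, 9.70, 5.88 and 6.27 CPM, against 19.7, 15.2, 12.9 and 13.7 CPM in Bach1 DKO pools. No pools overlapped, and ghra fell 2.11-fold (log2 -1.08 ± 0.30, adjusted p = 0.00633). The skeletal muscle sum was also lower there, 4473 CPM (4067 to 4801) in crkeap1a/b Bach1 DKO and 11414 CPM (10609 to 12496) in Bach1 DKO larvae, with 5 of 5 markers called lower, and its part was not tested. Between Bach1 DKO and WT larvae ghra had a log2 difference of -0.36 that was not called. Against crkeap1a/b larvae, ghra in crkeap1a/b Bach1 DKO larvae fell by 0.79 ± 0.30 on the log2 scale (adjusted p = 0.0404), but the pools overlapped, and the call was lost without any of 6 of the 8 pools (adjusted p 0.0786 to 0.138). As a share of ghra and ghrb counts together, ghra took 52.6% ± 2.34 in Bach1 DKO and 37.4% ± 4.02 in crkeap1a/b Bach1 DKO larvae, and 31.6% ± 4.59 in WT larvae.

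In the single crispants ghra was low. crkeap1a pools had 13.7, 6.30, 6.97 and 12.6 CPM of ghra and crkeap1b pools had 8.05, 11.2, 4.31 and 7.51 CPM, against 18.0, 14.8, 29.6 and 18.0 CPM in WT pools. Every crkeap1a and crkeap1b pool was below every WT pool, and ghra fell by 1.03 ± 0.28 (adjusted p = 0.0133) and by 1.32 ± 0.31 (adjusted p = 0.00329) on the log2 scale in the crkeap1a and crkeap1b comparisons. In crkeap1a/b larvae, edited for both paralogs, the difference from WT was -0.64 (adjusted p = 0.126), and the keap1a by keap1b interaction was 1.70 ± 0.43 (adjusted p = 0.00198). The crkeap1a call was lost without crkeap1a replicate 2 (adjusted p = 0.0869), crkeap1a replicate 3 (0.0674) or WT replicate 3 (0.0551). It was also lost with only the compared groups fitted (adjusted p = 0.0703). Without the 5 pools that stood apart, with a single crkeap1b pool left, the ghra differences were -0.58 for crkeap1a and -0.79 for crkeap1b larvae. The interaction was then 0.74, and none of these values was called.

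ghrb in crkeap1b pools was spread widely, at 27.2, 44.5, 26.4 and 18.2 CPM, and overlapped the WT pools. It fell by 0.55 ± 0.20 on the log2 scale (adjusted p = 0.0486). Neither edgeR (adjusted p = 0.0598) nor DESeq2 (adjusted p = 0.0604) called it, and it was lost with only the compared groups fitted (adjusted p = 0.151), with rows without a gene ID kept (adjusted p = 0.0523), and without any of 7 of the 8 pools (adjusted p 0.0519 to 0.225). Without the 5 pools that stood apart the value was 0.06 (adjusted p = 0.969), with a single crkeap1b pool left. The skeletal muscle sum was 15707 CPM (12602 to 19907) in crkeap1a and 20596 CPM (13504 to 27662) in crkeap1b larvae and 9011 CPM in WT larvae, with 4 of 5 markers called higher in either crispant group, and its part in the receptor values was not tested.

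Of the ligands, igf2b changed in a single pairwise comparison, and igf1 and igf2a in none. igf1, the main mediator of GH action on growth, averaged between 3.87 ± 3.30 CPM in crkeap1b and 7.20 ± 1.84 CPM in Nrf2 KO larvae, and no pairwise comparison or interaction was called. Counts of this size leave it imprecise, since 3 counts correspond to 0.970 to 1.88 CPM in these pools. In 3 of the 4 crkeap1a pools igf1 lay between 1.99 and 2.43 CPM while replicate 1 had 10.8 CPM, and crkeap1b pools had 2.01, 8.74, 1.61 and 3.13 CPM. WT pools had 4.78, 3.52, 4.64 and 8.29 CPM, so both single crispant groups overlapped WT. Leaving out crkeap1a replicate 1 or crkeap1b replicate 2 brought the keap1a by keap1b interaction of igf1, 1.29 over all pools, to 1.80 (adjusted p = 0.0355) or 1.86 (adjusted p = 0.0347). It was -0.51 without the 5 pools that stood apart (adjusted p = 0.766), a change of sign.

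igf2a and igf2b encode IGF2, the ligand best known for its role in embryonic growth, and current annotations list each symbol as a synonym of the other, so the names may be exchanged in other sources. igf2a averaged between 12.5 ± 2.61 CPM in crkeap1a/b Bach1 DKO and 19.4 ± 4.94 CPM in WT larvae, with no comparison called. With sample quality weights it was called lower in crkeap1a/b Bach1 DKO against Bach1 DKO larvae (log2 -0.52, adjusted p = 0.0354). igf2b was highest in the nfe2l2a mutants. It stood at 32.2, 40.3, 34.2 and 29.96 CPM in Nrf2 KO pools, against 18.4, 20.3, 18.9 and 24.5 CPM in WT pools. All Nrf2 KO pools were above all WT pools, and igf2b rose 1.66-fold (log2 0.73 ± 0.21, adjusted p = 0.0128). The call was lost without Nrf2 KO replicate 2 (adjusted p = 0.0578) or WT replicate 1 (0.0505). igf2b averaged 28.7 ± 3.66 CPM in crkeap1a/b Nrf2 KO and 21.1 ± 2.66 CPM in crkeap1a/b larvae, a log2 difference of 0.46 that was not called. It was called with only the compared groups fitted (adjusted p = 0.0356).

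The IGFBP1 paralogs gave the largest values of the axis and followed different patterns across the Bach1 groups. igfbp1a stood at 853.7, 943.1, 843.9 and 778.2 CPM in crkeap1a/b Bach1 DKO pools, against 543.5, 528.1, 530.1 and 513.9 CPM in Bach1 DKO pools. No pool of these groups overlapped, and igfbp1a rose 1.59-fold (log2 0.67 ± 0.20, adjusted p = 0.0137). Against crkeap1a/b pools, which had 382.2, 357.8, 439.5 and 340.3 CPM, the rise was 2.25-fold (log2 1.17 ± 0.20, adjusted p = 3.64e-05), again with no overlap. Between Bach1 DKO and WT larvae igfbp1a had a log2 difference of 0.13 that was not called, with means of 528.9 ± 12.1 CPM in Bach1 DKO and 494.2 ± 118 CPM in WT larvae.

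igfbp1b in contrast was lowest in Bach1 DKO larvae. It stood at 202.3, 223.0, 220.9 and 173.4 CPM in Bach1 DKO pools, against 722.7, 890.4, 512.2 and 483.2 CPM in WT pools. Every Bach1 DKO pool was under every WT pool, and igfbp1b fell 3.09-fold (log2 -1.63 ± 0.20, adjusted p = 3.43e-07). The level in crkeap1a/b Bach1 DKO pools was 553.9, 544.5, 409.1 and 413.7 CPM, all above the Bach1 DKO pools, and rose 2.29-fold relative to them (log2 1.20 ± 0.20, adjusted p = 2.14e-05). Against crkeap1a/b larvae, at 560.5 ± 45.7 CPM, the crkeap1a/b Bach1 DKO mean of 480.3 ± 79.6 CPM gave a log2 difference of -0.24 that was not called.

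Combined keap1a and keap1b editing went with higher levels of both paralogs on the Bach1 DKO background, while in crkeap1a/b against WT larvae the differences were -0.37 for igfbp1a and -0.19 for igfbp1b and neither was called. In crkeap1a/b Nrf2 KO against Nrf2 KO larvae both differences were 0.49 and not called (adjusted p = 0.263 for igfbp1a and 0.272 for igfbp1b), and the keap1a/b by Nrf2 interactions were 0.86 for igfbp1a (adjusted p = 0.159) and 0.69 for igfbp1b (adjusted p = 0.338). With only the compared groups fitted, the igfbp1b difference (adjusted p = 0.0458) and the igfbp1a interaction (adjusted p = 0.0414) were called. The keap1a/b by Bach1 interaction was 1.39 ± 0.29 on the log2 scale for igfbp1b (adjusted p = 0.00468) and 1.04 ± 0.28 for igfbp1a (adjusted p = 0.0384). The igfbp1a interaction was lost without any of 13 of the 16 pools involved (adjusted p 0.0518 to 0.103). Of igfbp1a and igfbp1b counts together, igfbp1a took 64.2% ± 2.85 in crkeap1a/b Bach1 DKO and 72.1% ± 2.10 in Bach1 DKO pools, against 43.4% ± 4.47 in WT pools. In the other 5 groups its mean share lay between 40.4% and 47.1%. This share was looked at after the values had been seen. The sum of both paralogs was 1335 ± 136 CPM in crkeap1a/b Bach1 DKO and 733.8 ± 31.1 CPM in Bach1 DKO larvae, and 1146 ± 296 CPM in WT larvae.

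**Figure D3:**
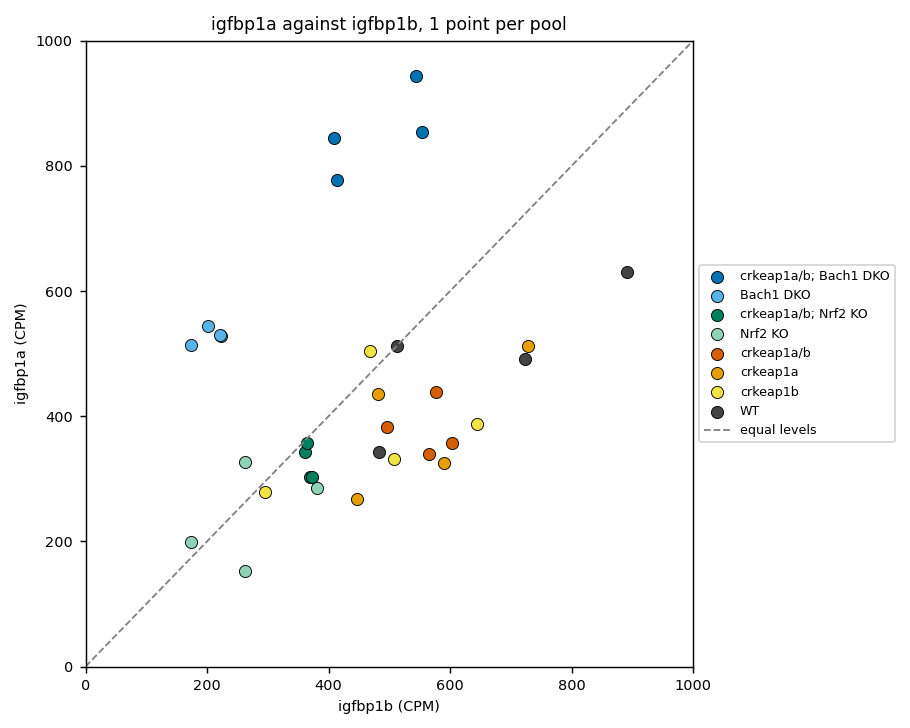
igfbp1a (y axis, CPM) against igfbp1b (x axis, CPM), with a point for each of the 32 pools coloured by group and a dashed line of equal levels. The 4 crkeap1a/b; Bach1 DKO pools (778.2 to 943.1 CPM of igfbp1a) and the 4 Bach1 DKO pools (173.4 to 223.0 CPM of igfbp1b) lie well above the line, and most other pools lie near or under it.

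Transcripts that respond to fasting and glucocorticoids, conditions under which IGFBP1 is known to rise, had their highest sum in the same groups as igfbp1a, a pattern that most of the single genes did not share. igfbp1b did not share it either, with its lowest group mean, 204.9 CPM, in Bach1 DKO larvae. The summed level of the 7 genes was 924.7 CPM (pools 860.7 to 980.7) in crkeap1a/b Bach1 DKO larvae and 679.6 CPM (642.6 to 750.4) in Bach1 DKO larvae. It was 317.8 CPM in crkeap1a/b larvae and 409.9 CPM (334.7 to 484.5) in WT larvae. This sum was set mostly by pck1, a gluconeogenic enzyme, which averaged 698.3 ± 38.2 CPM in crkeap1a/b Bach1 DKO and 111.0 ± 20.8 CPM in crkeap1a/b larvae (log2 2.66), and 459.5 ± 54.7 CPM in Bach1 DKO and 151.5 ± 39.3 CPM in WT larvae (log2 1.63). klf9 was also highest in the Bach1 groups, with means of 72.7 ± 15.8 CPM in Bach1 DKO and 60.6 ± 7.03 CPM in crkeap1a/b Bach1 DKO larvae. In WT larvae klf9 averaged 57.9 ± 11.1 CPM. Other genes of the list went the other way, such as ddit4, an inhibitor of TOR signalling, at 38.2 ± 8.16 CPM in Bach1 DKO and 98.2 ± 24.7 CPM in WT larvae. fkbp5, a glucocorticoid target, had its highest mean outside the Bach1 groups, at 134.7 CPM in crkeap1a/b Nrf2 KO larvae. In Bach1 DKO against WT larvae 1 of the 7 was called higher and 2 lower, beside 11.8% and 11.6% of all rows. In crkeap1a/b Bach1 DKO against crkeap1a/b larvae 3 were higher and 1 lower, beside 15.9% and 14%. The comparison of crkeap1a/b Bach1 DKO with Bach1 DKO larvae, where both IGFBP1 genes were called higher, called 0 of the 7, beside 25.4% of all rows. Of 8 genes known to respond to the amino acid stress factor ATF4, 5 were called higher in crkeap1a/b Bach1 DKO against crkeap1a/b larvae, beside the same 15.9%. Against Bach1 DKO larvae 3 of the 8 were higher, beside 13.7%, and in Bach1 DKO against WT larvae 1 was higher and 1 lower. The hepatocyte sum was 4643 CPM (3867 to 5340) in crkeap1a/b Bach1 DKO and 3971 CPM (3792 to 4121) in Bach1 DKO larvae. Of the 12 hepatocyte genes tested, 3 were called higher and 1 lower there, beside 13.7% and 11.7% of all rows. In WT larvae the sum was 3725 CPM (3086 to 4445), and Bach1 DKO against WT called 2 higher and 2 lower, beside 11.8% and 11.6%. The part of these lists in the IGFBP1 values was not tested.

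In the nfe2l2a mutants both IGFBP1 genes were low. igfbp1a stood at 153.1, 285.4, 327.5 and 198.4 CPM in Nrf2 KO pools, against 491.2, 630.2, 512.6 and 342.7 CPM in WT pools. The pools did not overlap, and igfbp1a fell 2.09-fold (log2 -1.06 ± 0.20, adjusted p = 0.000194). igfbp1b stood at 262.8, 380.2, 263.2 and 173.4 CPM in Nrf2 KO pools, all below the WT pools, and fell 2.42-fold (log2 -1.28 ± 0.20, adjusted p = 1.93e-05). igfbp1b was tightly grouped in crkeap1a/b Nrf2 KO pools at 361.4, 363.9, 369.7 and 373.3 CPM, against 496.0, 602.9, 577.4 and 565.6 CPM in crkeap1a/b pools. It fell by 0.59 ± 0.20 on the log2 scale (adjusted p = 0.031), and although the pools did not overlap the call was lost without any of 7 of the 8 (adjusted p 0.0522 to 0.0640). igfbp1a did not pass the test there, at 326.3 ± 28.0 CPM in crkeap1a/b Nrf2 KO and 380.0 ± 43.2 CPM in crkeap1a/b larvae. The summed level of 10 hypoxia response genes was 762.2 CPM (700.9 to 798.4) in Nrf2 KO and 1076 CPM (980.4 to 1173) in WT larvae, with 2 of the 9 tested called higher and 2 lower, and its part was not tested. The difference of the sum lay mostly in hif1al (146.4 CPM in Nrf2 KO and 390.4 CPM in WT larvae) and pfkfb4b (97.3 CPM in Nrf2 KO and 260.6 CPM in WT larvae), while pdk1 was higher (98.0 CPM in Nrf2 KO and 31.7 CPM in WT larvae). The hypoxia sum was also lower than in WT in the groups with the highest igfbp1a. It was 846.5 CPM (798.9 to 890.4) in Bach1 DKO and 830.9 CPM (786.0 to 870.1) in crkeap1a/b Bach1 DKO larvae. The fasting and glucocorticoid sum was 422.5 CPM (317.3 to 581.9) in Nrf2 KO and 409.9 CPM (334.7 to 484.5) in WT larvae. Of its 7 genes, 2 were called higher and 2 lower, and its part was not tested.

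In the single crispants neither IGFBP1 gene was called: igfbp1a averaged 385.2 ± 109 CPM in crkeap1a, 375.6 ± 96.4 CPM in crkeap1b and 494.2 ± 118 CPM in WT larvae, and igfbp1b averaged 561.3 ± 127 CPM in crkeap1a, 478.8 ± 144 CPM in crkeap1b and 652.1 ± 191 CPM in WT larvae. Without the 5 pools that stood apart, igfbp1b in the single crkeap1b pool left was lower than WT by a log2 difference of -1.10 (adjusted p = 0.0313), a value that assumes this pool varies like the other groups, and the keap1a by keap1b interaction of igfbp1b was 1.37 (adjusted p = 0.00563, against 0.44 and no call over all pools). igfbp2a, whose product binds IGFs and restrains growth when overproduced in zebrafish embryos, was too scarce for a firm comparison. Its highest pool was a Bach1 DKO pool with 4.41 CPM, a crkeap1a/b Nrf2 KO pool and a Nrf2 KO pool had no count, where 3 counts would be 1.33 and 1.53 CPM. The highest group mean of igfbp2a was 2.45 CPM in crkeap1b larvae, on 4 to 5 counts per pool. These pools all lay above the WT pools (0.391 to 1.44 CPM), in a comparison where 11.9% of all tested rows did not overlap. When the filter was lifted, limma-voom gave a log2 difference of 1.28 there (adjusted p = 0.139). The F test of igfbp2a then had an adjusted p of 0.152.

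irs2b encodes an insulin receptor substrate that couples the insulin and IGF1 receptors to PI3K. It fell in Bach1 DKO and in both single crispants relative to WT, and in crkeap1a/b Bach1 DKO relative to crkeap1a/b larvae. In Bach1 DKO pools it stood at 102.7, 95.7, 108.7 and 96.6 CPM, against 166.4, 201.2, 155.9 and 155.3 CPM in WT pools. These did not overlap, and irs2b fell 1.67-fold (log2 -0.74 ± 0.14, adjusted p = 0.000244). In crkeap1a/b Bach1 DKO pools it stood at 130.6, 121.9, 130.9 and 131.6 CPM, all above the Bach1 DKO pools, with a log2 difference of 0.33 ± 0.14 that was not called (adjusted p = 0.0893). That difference was called with only the compared groups fitted (adjusted p = 0.00208) and with sample quality weights (adjusted p = 0.0167). Against crkeap1a/b pools, at 188.9, 151.2, 174.9 and 223.1 CPM, all crkeap1a/b Bach1 DKO pools were lower, and irs2b fell by 0.51 ± 0.14 on the log2 scale (adjusted p = 0.00559).

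In the single crispants irs2b stood at 124.6, 99.5, 93.1 and 128.4 CPM in crkeap1a pools and at 96.6, 115.6, 103.3 and 65.1 CPM in crkeap1b pools, all below the WT pools. It fell by 0.61 ± 0.14 (adjusted p = 0.00551) and by 0.83 ± 0.15 (adjusted p = 0.000228) on the log2 scale in the crkeap1a and crkeap1b comparisons. In crkeap1a/b larvae the mean was 184.5 ± 30.1 CPM and in WT larvae 169.7 ± 21.6 CPM, a log2 difference of 0.10 that was not called. The keap1a by keap1b interaction of 1.53 ± 0.20 (adjusted p = 5.82e-07) had the smallest adjusted p of any member in the 3 interactions. Without the 5 pools that stood apart it was 1.08, a value that rests on the single crkeap1b pool left. The single crispant differences were then -0.42 for crkeap1a and -0.55 for crkeap1b larvae and were no longer called. In the Nrf2 KO groups irs2b had no call, with means of 168.6 ± 13.4 CPM in crkeap1a/b Nrf2 KO and 177.3 ± 31.2 CPM in Nrf2 KO larvae.

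Ranked by group mean, most neighbouring groups of a member overlapped pool by pool. The exceptions were ghrb between crkeap1b and Bach1 DKO larvae (2.11-fold between means), igfbp1a between crkeap1a/b Bach1 DKO and Bach1 DKO larvae (1.62-fold), and irs2b between crkeap1a/b Nrf2 KO and crkeap1a/b Bach1 DKO larvae (1.31-fold). From the highest group mean down, ghrb ran Nrf2 KO, crkeap1a/b Nrf2 KO, WT, crkeap1a, crkeap1a/b, crkeap1b, Bach1 DKO, crkeap1a/b Bach1 DKO. ghra ran crkeap1a/b Nrf2 KO, Nrf2 KO, WT, Bach1 DKO, crkeap1a/b, crkeap1a, crkeap1b, crkeap1a/b Bach1 DKO. igfbp1b ran WT, crkeap1a, crkeap1a/b, crkeap1a/b Bach1 DKO, crkeap1b, crkeap1a/b Nrf2 KO, Nrf2 KO, Bach1 DKO. igfbp1a ran crkeap1a/b Bach1 DKO, Bach1 DKO, WT, crkeap1a, crkeap1a/b, crkeap1b, crkeap1a/b Nrf2 KO, Nrf2 KO. irs2b ran crkeap1a/b, Nrf2 KO, WT, crkeap1a/b Nrf2 KO, crkeap1a/b Bach1 DKO, crkeap1a, Bach1 DKO, crkeap1b.

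The other genes of the pathway were described from a list of 64, of which 46 could be tested. In Bach1 DKO against WT larvae 5 of the 46 were called higher and 9 lower, with a median log2 difference of -0.03 beside 0.01 over all rows. That is 30.4% of the list, beside 23.4% of all rows called. socs1a, an inhibitor of JAK signalling, was higher at 5.06 CPM in Bach1 DKO and 1.03 CPM in WT larvae (log2 2.26 ± 0.52, adjusted p = 0.0016). Its WT mean lay under the level of 3 counts, 1.07 to 1.17 CPM in WT pools, so this value is imprecise. igf1rb, an IGF1 receptor, was lower at 19.3 CPM in Bach1 DKO larvae, against 46.7 CPM in WT larvae (log2 -1.27 ± 0.20, adjusted p = 1.22e-05), as were pappa2, a protease of IGF binding proteins (-1.25 ± 0.31), and tsc2, an inhibitor of TOR (-1.01 ± 0.18). In crkeap1a/b Bach1 DKO against Bach1 DKO larvae 4 were higher and 7 lower (23.9% of the list, 25.4% of all rows), among them the binding protein igfbp5a (1.02 ± 0.24), the transcription factor foxo3a (-0.85 ± 0.14), the TOR activator rheb (-0.67 ± 0.19) and the PI3K subunit pik3r1 (-0.62 ± 0.17). In crkeap1a/b Bach1 DKO against crkeap1a/b larvae 6 were higher and 9 lower (32.6% of the list, 29.9% of all rows), among them socs3b (2.10 ± 0.36) and socs1a (1.55 ± 0.51), both inhibitors of cytokine receptor signalling, and stc1, whose mammalian counterpart inhibits proteases of IGF binding proteins (-1.42 ± 0.47), and the kinase akt3a (-1.22 ± 0.26). Here socs1a (1.20 CPM in crkeap1a/b larvae) and stc1 (1.70 CPM in crkeap1a/b Bach1 DKO larvae) rest on few counts.

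The nfe2l2a mutant groups were set apart by igf1rb. It had 2 counts in total over the 4 Nrf2 KO pools and 508 over the 4 WT pools, a depth-scaled ratio of 0.00509 (95% exact counting interval 0.000614 to 0.0185). Over the crkeap1a/b Nrf2 KO pools it had 1 count and over the crkeap1a/b pools 319, a ratio of 0.00394 (9.94e-05 to 0.0221). These intervals cover counting error only, and line and mutation cannot be told apart here. The tags lie at transcript ends, so the counts do not show whether the whole transcript was lost. igf1ra, the paralog on the list, had no row. In Nrf2 KO against WT larvae 4 of 46 pathway genes were called higher and 8 lower (26.1% of the list, 15.9% of all rows), among them igfbp5a (1.66 CPM in Nrf2 KO larvae and 7.91 CPM in WT larvae, log2 -1.995 ± 0.51), pappa2 (-1.15 ± 0.31) and socs3a (0.83 ± 0.18). In crkeap1a/b Nrf2 KO against crkeap1a/b larvae 5 were higher and 5 lower (21.7% of the list, 24.1% of all rows), among them igfbp5a (-1.98 ± 0.40), igfbp6b, another binding protein (1.88 ± 0.46), and socs3a (1.49 ± 0.18). In crkeap1a/b Nrf2 KO against Nrf2 KO larvae limma-voom called 0 of the 46, beside 0.808% of all rows.

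In the single crispants the called pathway genes were lower with 1 exception: 8 of 46 were lower in crkeap1a against WT larvae, and 9 were lower and 1 higher in crkeap1b against WT larvae, with medians of -0.16 and -0.24 beside 0.01 and 0.00 over all rows. These are 17.4% and 21.7% of the list, beside 13.2% and 18.1% of all rows called. foxo1a, a transcription factor held back by insulin and IGF signalling, averaged 79.3 CPM in crkeap1a and 72.5 CPM in crkeap1b larvae and 150.0 CPM in WT larvae (log2 -1.03 ± 0.25 and -1.19 ± 0.26). irs1, a second receptor substrate, averaged 29.3 CPM in crkeap1a and 22.4 CPM in crkeap1b larvae, against 49.7 CPM in WT larvae (-0.78 ± 0.19 and -1.19 ± 0.21). The crkeap1a and crkeap1b comparisons called 2 and 0 pathway genes without the 5 pools that stood apart. In crkeap1a/b against WT larvae 3 were lower, which is 6.52% of the list beside 5.29% of all rows called. These were igf1rb (-0.71 ± 0.18), foxo3a (-0.56 ± 0.13) and socs2, a feedback inhibitor of GH receptor signalling (-0.48 ± 0.13). The keap1a by keap1b interaction was called for 24 of the 46 (52.2%, beside 38.3% of all rows), and for 2 without those pools.

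**Figure D4:**
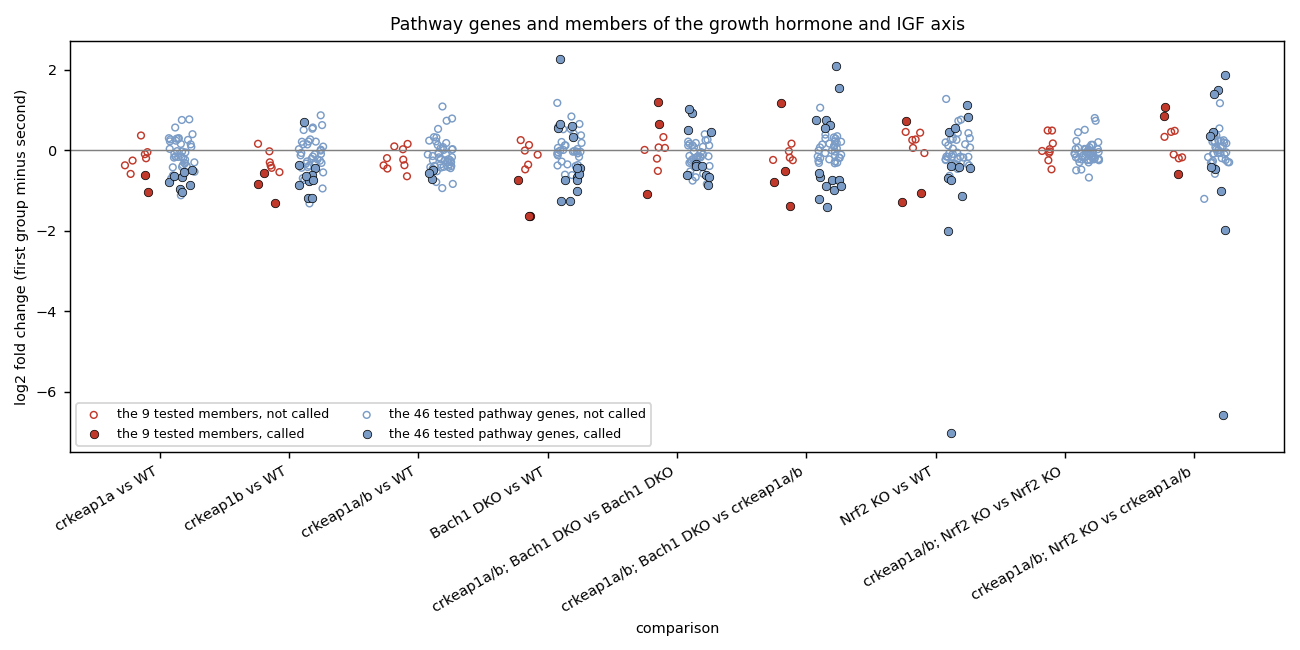
Log2 fold change from limma-voom (y axis) of the 9 tested members (red) and the 46 tested pathway genes (blue) in each of 9 pairwise comparisons (x axis), with filled points for an adjusted p under 0.05. Most points lie between -2 and 2, crkeap1a/b; Nrf2 KO against Nrf2 KO has no filled point, and the lowest points in the Nrf2 KO and crkeap1a/b; Nrf2 KO columns are igf1rb, whose fitted value rests on 2 and 1 counts and depends on the offset added to 0.

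As a description of the pattern across the 8 group means, the 3 genes most like each of the 7 members that differed between groups by Pearson's r of log2 CPM were listed, out of the tested rows with a gene symbol and with no test. For ghrb these were samd10a (0.985), wdr19 (0.983) and fkbp4 (0.976), and for ghra bean1 (0.974), rhbg (0.972) and prrg1 (0.968). For igfbp1a they were mif4gdb (0.989), irak1 (0.979) and mtmr9 (0.968), and for igfbp1b si:ch73-359m17.2 (0.965), mfsd6b (0.958) and zgc:165409 (0.9497). For irs2b they were flot2b (0.974), pex14 (0.974) and leo1 (0.972), for gh1 lactb (0.984), cry3b (0.982) and f10 (0.974), and for igf2b si:cabz01071911.4 (0.988), uspl1 (0.988) and fzd1 (0.980). Among the members themselves ghrb and igfbp1a ran in opposite directions over the 8 group means (r = -0.844), and ghrb and gh1 in the same direction (r = 0.845). Each point shares its libraries and lines with the others, and with 8 points and so many genes to choose from, high values are found for every member.

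In the zebrafish gene order the members sit apart, except that igfbp1a lies next to igfbp3 and igfbp2a next to igfbp5a, other binding protein genes of the axis. igf2b lies between mrpl23 and th, the tyrosine hydroxylase gene, igf1 between bcat1 and nup37, ghra between selenop and fbxo4, and ghrb between ccdc152 and oxct1b.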

How the data were processed

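Libraries were made from 32 pools with a 3′ tag kit (QuantSeq) and sequenced by the authors, who deposited a single table of raw read counts per gene row. Per the labels, the authors checked reads with FastQC 0.72, trimmed them with cutadapt 1.16, aligned them to danRer11 with STAR 2.7.5b and counted them with featureCounts 1.6.3 on a published zebrafish annotation. The handling of strand and of multi-mapping reads is not given in the sources used here, so reads shared by paralogs such as igfbp1a and igfbp1b, or by overlapping genes, could not be assessed. The study compared groups with limma 3.40.6.

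The table had 16825 rows. The 786 rows without a gene ID held 30.6% to 46.8% of each pool's counts and were left out of library sizes and tests, and 15617 of the 16039 rows with an ID matched a symbol in RefSeq (names and gene order only, from an assembly other than the authors' build). No column belonged to an unknown sample. Totals over rows with an ID were 1976901 to 2804487 counts per pool, at which 3 counts equal 0.970 to 1.88 CPM. No pair of replicates agreed within counting noise.

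Groups came from the labels. CPM used TMM factors. Rows were kept by filterByExpr with a minimum count of 10, leaving 14108. limma-voom 3.58.1 (R 4.3.3) fitted 1 model with 8 group means, a design that matches the study's tool, and gave moderated two-sided tests of 9 pairwise comparisons, 3 interactions and an F test over groups, with Benjamini-Hochberg adjustment over all 14108 rows and an adjusted p threshold of 0.05. Every adjusted p in the text comes from this fit, or from its repeat under a named alternative. A fold change is the first group over the second. The fit has 24 residual degrees of freedom, and was tested on simulated data. Alternatives were edgeR 4.0.16, DESeq2 1.42.0, RLE scaling, no filter on low counts, sample quality weights, a fit of only the compared groups, the replicate number as a block, and leaving out each pool. Keeping the rows without an ID, and leaving out the 5 pools that stood apart on the first principal component, were added after seeing the data.

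All 10 members were named in every comparison. Of the pathway list, up to 4 called genes per comparison with the largest change and no overlap of pools were named, and beside the members the 3 tested genes with a symbol and the highest Pearson correlation over group means. The members, the pathway list and the marker lists were chosen with earlier results of these data known. No sequence is printed and a planned promoter motif search was not run, since no sequence table was used here.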

Additional observations from a re-analysis of the deposited data

Results flagged for a closer look

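Of the 80 sets of 4 pools (10 members in 8 groups), 3 had a pool far from the other three by Dixon's test at the 95% level, where chance gives about 1 in 20. These were igf1 in crkeap1a replicate 1 at 10.8 CPM, with the other pools of its group between 1.99 and 2.43 CPM, igf2b in the same library at 28.9 CPM, with the others between 16.9 and 18.0 CPM, and irs2b in crkeap1a/b Bach1 DKO replicate 2 at 121.9 CPM, with the others between 130.6 and 131.6 CPM. The effect of an edit differed between backgrounds in 5 of the 27 member interactions tested with limma-voom, of which 3 of 9 fell in the keap1a by keap1b interaction, where 38.3% of all rows were called, and 2 of 9 in the keap1a/b by Bach1 interaction, where 2.74% were. On the log2 scale the keap1a by keap1b interaction was 1.53 for irs2b, 1.70 for ghra and -0.76 for gh1, and the keap1a/b by Bach1 interaction was 1.39 for igfbp1b and 1.04 for igfbp1a. The irs2b, ghra and igfbp1b interactions kept their call whichever of the 16 pools was left out. Both ghra (0.74, adjusted p = 0.489) and gh1 (0.32, adjusted p = 0.681) lost it without the 5 single crispant pools that stood apart.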

How the results depend on the processing

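Of 108 member values (9 members in 12 comparisons), 26 were called, and of 464 repeats of these under the alternatives 462 kept the sign and 400 the call. The exceptions in sign, both without the 5 single crispant pools that stood apart, were ghrb in crkeap1b against WT (0.065) and the keap1a by keap1b interaction of gh1 (0.32). Of 1507 repeats of the values not called, 18 passed and 85 changed sign with neither value called. With only the compared groups in the fit, the members called were 1 in crkeap1a against WT, 1 in crkeap1a/b Nrf2 KO against Nrf2 KO, 5 in crkeap1a/b Nrf2 KO against crkeap1a/b, and 1 in the keap1a/b by Nrf2 interaction. They were 2 in crkeap1b, 4 in Bach1 DKO and 4 in Nrf2 KO against WT, 4 in crkeap1a/b Bach1 DKO against Bach1 DKO and 2 in the keap1a by keap1b interaction, and the counts in the other comparisons did not change. Sample quality weights gave 5 in crkeap1a/b Bach1 DKO against Bach1 DKO. They gave 4 in Bach1 DKO against WT, in Nrf2 KO against WT and in crkeap1a/b Nrf2 KO against crkeap1a/b, and left the other counts unchanged. Without the 5 pools there were 0 in crkeap1a and 1 in crkeap1b against WT. Leaving out single pools gave, among other shifts, 1 to 2 in crkeap1a against WT, 1 to 2 in the keap1a/b by Bach1 and 0 to 1 in the keap1a/b by Nrf2 interaction. The number of all rows called also moved under these alternatives, as given below for some of the comparisons. Elsewhere the member counts stand without the share of all rows under the same setting, so they are no result about the members. The cause of these shifts was not tested.

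Pathway genes called with only the compared groups were 5 in crkeap1a, 3 in crkeap1b and 5 in crkeap1a/b against WT (8, 10 and 3 otherwise), 16 in crkeap1a/b Nrf2 KO against crkeap1a/b (10 otherwise) and 1 in the keap1a/b by Bach1 interaction (0 otherwise). With quality weights they were 5 in crkeap1a and 6 in crkeap1a/b against WT and 16 in crkeap1a/b Nrf2 KO against crkeap1a/b. Over all rows, the crkeap1a and crkeap1b comparisons with WT called 1858 and 2550, but 420 and 472 with only the compared groups, and 314 and 67 without the 5 pools, whose omission also brought the keap1a by keap1b interaction to 630, against 5400. Quality weights gave 1227 in crkeap1a against WT. crkeap1a/b Nrf2 KO against Nrf2 KO called 114 rows, but 727 with only the compared groups, 602 with quality weights and 237 with DESeq2. The keap1a/b by Bach1 and by Nrf2 interactions called 386 and 164, but 1011 and 395 with only the compared groups and 865 and 302 with quality weights. Leaving out single pools gave 595 to 2732 rows in crkeap1a and 1047 to 4276 in crkeap1b against WT.

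In no comparison did every same-numbered pair of pools correlate above 0.1 in its deviations, so the numbers were not taken as a pairing. The highest mean was 0.129, in crkeap1a/b Bach1 DKO against Bach1 DKO, where the lowest pair was at 0.075. With the replicate block 2 members were called in crkeap1b against WT and 2 in the keap1a by keap1b interaction, since ghrb (adjusted p = 0.0568) and gh1 (adjusted p = 0.0536) were lost, and the other counts of members stayed as they were. Low counts leave wide error for igf1 (3 to 28 counts per pool), and igfbp2a (0 to 10) was not tested with the filter on.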
